A study of Homo sapiens with 9 samples.

Results

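The BCL2 family apoptosis regulators described here are 10 genes: the anti-apoptotic members BCL2, BCL2L1, MCL1 and BCL2A1, the effectors BAX and BAK1, and the BH3-only members BBC3, PMAIP1, BCL2L11 and BIK. They were picked by gene symbol and not by a rule on any measured value, but earlier results of these data were known. All 10 had a row in the count table, which held 58884 genes. RNA-seq was performed on MDA-MB-231, a human claudin-low breast cancer line (Par), and on the sub-populations LM2 and BrM2, which were selected from it in mice for raised colonization of the lung and of the brain. Each line had 3 biological replicates harvested at different passages, 9 libraries in all, and all cells were grown untreated as monolayers in serum-containing medium. Each sub-population is a single selected derivative, so a difference between lines is a difference between these derivatives, and p-values measure the spread between passages. LM2 and BrM2 were both compared with the same Par libraries, and BrM2 was compared with LM2.

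Proteins of the BCL2 family decide whether the outer membrane of the mitochondrion stays intact. The effectors BAX and BAK, once active, open pores in that membrane, which releases cytochrome c and starts the caspase cascade. The anti-apoptotic members hold effectors and BH3-only proteins in check by binding them, and BH3-only proteins carry stress signals by occupying the anti-apoptotic members or activating the effectors directly. Tumor cells often tip this balance by raising an anti-apoptotic member, and drugs that mimic the BH3 domain bind BCL2, BCL-XL or MCL1. RNA of the family is only part of this balance, since MCL1 and several BH3-only proteins are controlled strongly by protein turnover, modification and splicing.

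Promoter sequence was read for the 4 members with a window whose libraries did not overlap between Par and at least 1 sub-population: BCL2A1, BCL2, BBC3 and BCL2L11. Each line below gives the 250 bases before an annotated start in RefSeq GRCh38.p14, written 5′ to 3′ on the strand of the gene. For BCL2A1 and BCL2L11 this is the outer start of the gene. For BCL2 and BBC3 it is an inner start, since their annotated genes begin at 63320090 and 47232860. The BCL2 stretch thus lies wholly inside the gene and the BBC3 stretch mostly. Capitals mark matches, on either strand, to TGANTCA, the AP-1 site, to TATAAA, the TATA box, to CCAAT, the binding motif of NF-Y, to GGGCGG, the GC box, to CACGTG, the palindromic E-box, to TGACGT, the core of the cAMP response element, to CCGGAAG, an ETS site, and to the NF-kappaB and p53 consensus sequences. No matches overlapped in these 4 windows. BCL2A1 and BCL2 lie on the minus strand at chr15:79971197-79971446 and chr18:63319770-63320019, BBC3 on the minus strand at chr19:47232668-47232917, and BCL2L11 on the plus strand at chr2:111120664-111120913.
BCL2A1: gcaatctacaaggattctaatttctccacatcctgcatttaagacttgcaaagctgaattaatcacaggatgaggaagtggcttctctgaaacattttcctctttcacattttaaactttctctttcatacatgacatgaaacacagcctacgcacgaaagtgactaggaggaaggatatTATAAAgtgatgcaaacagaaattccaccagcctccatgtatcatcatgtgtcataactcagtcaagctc
BCL2: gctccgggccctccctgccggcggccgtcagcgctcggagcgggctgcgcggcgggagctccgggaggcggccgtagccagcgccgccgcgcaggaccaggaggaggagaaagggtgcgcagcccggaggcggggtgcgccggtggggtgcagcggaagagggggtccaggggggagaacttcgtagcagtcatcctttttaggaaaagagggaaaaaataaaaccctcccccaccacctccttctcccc
BBC3: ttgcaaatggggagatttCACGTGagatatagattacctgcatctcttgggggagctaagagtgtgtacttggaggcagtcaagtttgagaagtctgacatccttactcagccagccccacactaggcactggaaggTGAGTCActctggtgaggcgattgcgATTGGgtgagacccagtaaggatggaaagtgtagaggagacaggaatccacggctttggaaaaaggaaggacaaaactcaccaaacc
BCL2L11: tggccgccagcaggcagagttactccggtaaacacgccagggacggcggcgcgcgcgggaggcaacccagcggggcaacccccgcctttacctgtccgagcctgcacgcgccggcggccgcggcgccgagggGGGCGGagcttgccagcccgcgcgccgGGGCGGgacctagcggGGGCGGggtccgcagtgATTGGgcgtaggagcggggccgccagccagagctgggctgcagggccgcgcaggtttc

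The motifs were searched in windows that also took in the first 50 bases after the start, for 35116 promoters in all. The BCL2A1 window held a TATAAA at base -70, a motif found in 11.5% of all windows, and no match to the AP-1 or NF-kappaB consensus, which were found in 7.71% and 5.91%. The BBC3 window held an AP-1 match at -113, an E-box at -232 (7.26% of all windows) and a reverse CCAAT at -87 (34.6%), and no p53 match (6.63%). The BCL2L11 window held 3 GC boxes at -118, -91 and -75 (45% of all windows) and a reverse CCAAT at -58. The BCL2 window, which lies inside the gene, held none of the motifs. The 300-base windows also differed in composition, with a GC content of 41.0% for BCL2A1, 48.0% for BBC3, 70.7% for BCL2 and 74.7% for BCL2L11, against a median of 58.7% over all windows. A match describes the letters of a window and is not a binding site, and a missing match says only that the letters are not in that window.

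Counts on genes totalled 14371858 to 24511786 per library. Levels are given as CPM, the count of a gene relative to the TMM-normalized library size. The cells carried KRT8, KRT18 and VIM at 269 to 1875 CPM. KRT19 was at 169 to 252 CPM in Par, 29.1 to 72.8 in LM2 and 104 to 284 in BrM2. EPCAM was at 2.73 to 7.94 CPM, and the basal genes KRT5 and KRT14 were at most 0.645 CPM. Of markers of other cell types, the 3 leukocyte genes summed to 1.19 to 4.62 CPM, nearly all of it CD14 (0.927 to 4.57 CPM), with PTPRC and CD3E at 0.265 CPM or less. The 2 endothelial genes summed to 2.16 to 7.27 CPM, nearly all of it PECAM1, with CDH5 at 0.177 CPM or less. The 3 fibroblast genes summed to 26.7 to 31.2 CPM in Par and 3.88 to 10.6 CPM in the sub-populations, nearly all of it PDGFRB, with DCN at 0 in 8 of the 9 libraries. The 2 neural or glial genes, GFAP and MBP, summed to 174.8 to 193 CPM in Par, 110.1 to 120.2 in LM2 and 143 to 155 in BrM2, most of it MBP. The fibroblast and neural lists thus moved with the line, and their part in the differences between lines was not tested. The luminal receptors ESR1 and PGR stayed under 0.7 CPM, and the epithelial cadherin CDH1 under 2 CPM. Of the claudins, CLDN3 was at most 0.436 CPM, whereas CLDN4 was at 72.7 to 107 CPM in Par and 4.53 to 32.7 CPM in the sub-populations. CLDN7 was at 5.98 to 22.4 CPM. Replicate 1 of each line stood apart from replicates 2 and 3: in an edgeR fit that kept the replicate number as a block, 72.7% of the 13001 tested genes differed between replicate 1 and the mean of the others at an adjusted p under 0.05. Among the 9 tested members, 7 differed this way. BCL2L1, BAK1, BBC3 and BAX were higher in replicate 1 by 0.99, 0.96, 0.91 and 0.84 on the log2 scale, and PMAIP1, BCL2 and MCL1 fell by 0.85, 0.77 and 0.60. The GC content of the longest transcript was 58.2% to 69.7% for the 4 that were higher and 36.7% to 45.6% for the 3 that were lower, and its part in the difference was not tested. BCL2A1 and BCL2L11, at -0.56 and -0.04, did not pass the test. Because replicate 1 stood apart in every line, each comparison is given both without the block and, where that changes a call, with it. Whether replicates 2 and 3 of the lines belong together by number is not settled by the data, so differences within these numbers are descriptive. The blocked fit also uses the number for replicates 2 and 3, so its adjusted p-values take in a pairing that the data do not show.

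**Figure D1:**
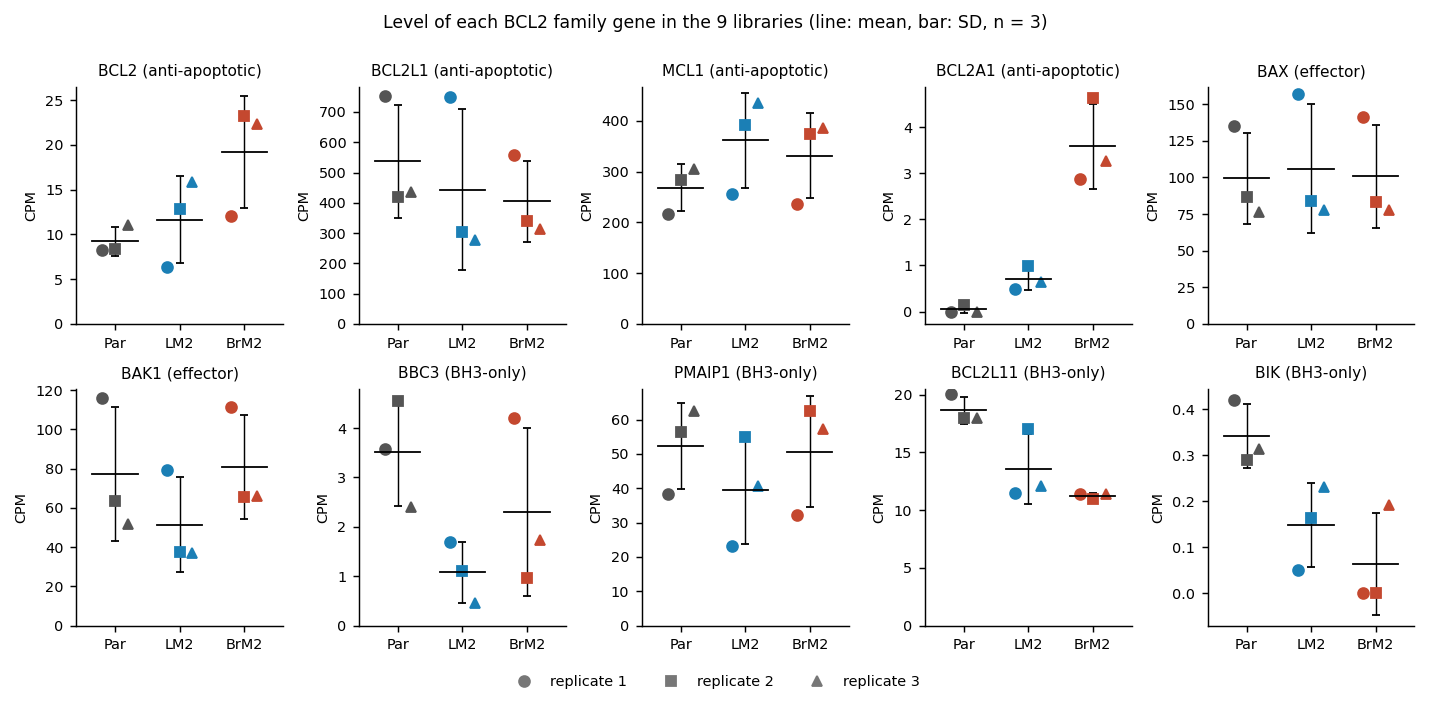
CPM of each member (vertical axes, linear) in Par, LM2 and BrM2, with points for replicates 1, 2 and 3, a line at the mean and a bar of 1 SD (n = 3). BCL2A1 separates all 3 lines, from at most 0.145 CPM in Par to at least 2.88 CPM in BrM2, and BCL2L1, BAX and BAK1 are highest in replicate 1 of every line.

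At the level of whole comparisons, few members passed the test. Without the block, 1 of the 9 tested members differed between LM2 and Par (BCL2A1), against 8.65% of all tested genes. Between BrM2 and Par it was 2 (BCL2A1 and BCL2L11), against 13.2%, and between BrM2 and LM2 it was 1 (BCL2A1), against 8.08%. In the blocked fit the counts were 6, 4 and 3, where 34.5%, 42.7% and 37.5% of all genes were called. Leaving out replicate 1 of every line, without a block, gave 5, 5 and 3 members and 33.1%, 40.4% and 32.6% of all genes. Read against that background, the blocked counts of BrM2 against Par and of BrM2 against LM2 lay close to the share of all genes and that of LM2 against Par was above it. The members were not tested as a set. The median log2 fold change of the 9 tested members without the block was -0.27, 0.02 and 0.36 in the 3 comparisons, beside 0.01, -0.02 and -0.03 over all tested genes. BIK, at 8 counts or fewer in every library, was below the filter on low counts and is the member left out of these tests. BCL2A1 passed that filter only through BrM2, the line in which it was highest, with at most 24 counts per library in LM2 and 3 in Par. Its calls are therefore not independent of the filter.

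**Figure D2:**
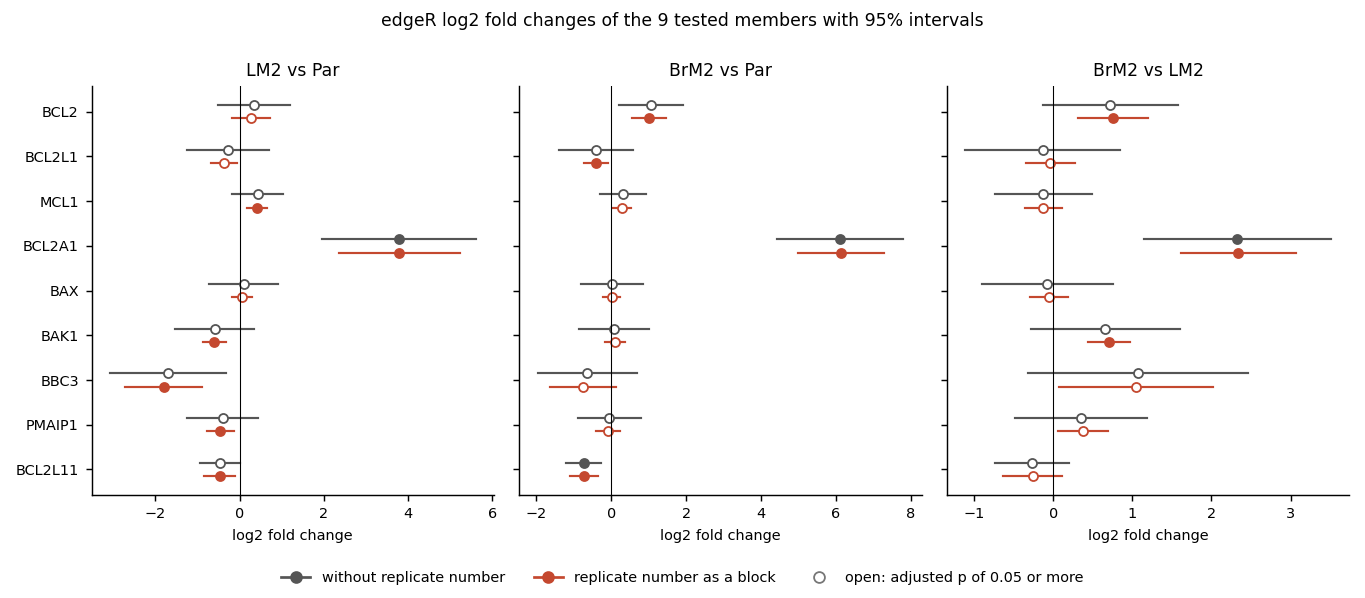
edgeR log2 fold changes (horizontal axes) of the 9 tested members with 95% intervals, in grey from the fit on the lines alone and in red from the blocked fit. Filled points passed an adjusted p of 0.05. BCL2A1 is the only member filled in both fits of all 3 comparisons, and the blocked intervals are narrower for every member.

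Among the anti-apoptotic members, BCL2A1 was the member that differed most between the lines. BCL2A1 (ENSG00000140379, chr15:79960892-79971196 in GRCh38.p14, the build of all positions given here) encodes BFL1, a pro-survival protein best known from blood cells and melanoma, where NF-kappaB and MITF activate the gene. Its counts were 0, 3 and 0 in Par, 10, 24 and 17 in LM2, and 39, 105 and 68 in BrM2. The corresponding CPM were 0, 0.145 and 0 in Par, 0.497, 0.979 and 0.651 in LM2, and 2.88, 4.64 and 3.26 in BrM2. All 3 groups were separate, in the order Par, LM2, BrM2. Of the 50-base stretches of BCL2A1, 4.84% also occur in ST20 or ENSG00000288592, and the effect of this on the BCL2A1 count was not tested. Par was at the floor of 3 counts per library, so the rise was at least 5.06-fold in LM2 (adjusted p = 0.0201, edgeR quasi-likelihood test, Benjamini-Hochberg) and at least 25.6-fold in BrM2 (adjusted p = 0.000875, edgeR). BrM2 was above LM2 by 2.33 on the log2 scale (SE 0.52, 95% interval 1.14 to 3.51, adjusted p = 0.0269, edgeR), and the difference was 2.33, 2.14 and 2.17 within replicate numbers 1, 2 and 3.

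The rise in BrM2 over Par passed the test in every alternative, with adjusted p from 1.25e-10 to 0.0462 over edgeR and DESeq2 fits. The LM2 rise rested on 10 to 24 counts per library, below the filter on low counts that BCL2A1 passed only through BrM2. The adjusted p of this rise ranged from 0.000163 to 0.287 over the alternatives. It was 0.0643 without Par replicate 1, 0.0702 without Par replicate 3, 0.078 without LM2 replicate 2 and 0.0514 without LM2 replicate 3 (edgeR). The difference between BrM2 and LM2 likewise had an adjusted p of 0.0737 without LM2 replicate 2, 0.107 without LM2 replicate 3, 0.0935 without BrM2 replicate 2 and 0.0831 without BrM2 replicate 3 (edgeR), within a range of 1.01e-06 to 0.319. Even in BrM2 the transcript was scarce. Per kilobase of transcript it reached 4.44 ± 1.14 CPM per kb (SD, n = 3), which was 2.21% of the summed anti-apoptotic level. PLXDC2, NAP1L3 and CHD3 were the tested genes whose log2 CPM followed that of BCL2A1 most closely over the 9 libraries, with Pearson correlations of 0.99, 0.98 and 0.98. The 9 points share lines and depth, and the correlation is a description of their order. The level of NAP1L3, for example, was 0.758 CPM in Par, 2.58 in LM2 and 9.18 in BrM2.

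BCL2 (ENSG00000171791, chr18:63123346-63320090), the founding member, is in breast tissue best known as an estrogen-responsive gene of luminal tumors. Its level was 8.25, 8.37 and 11.05 CPM in Par, 6.31, 12.8 and 15.8 CPM in LM2, and 12.0, 23.3 and 22.4 CPM in BrM2. Every BrM2 library was above every Par library, whereas LM2 spanned the Par range and overlapped BrM2. Among all tested genes, 15.2% had BrM2 libraries that were all above Par. BrM2 was above Par by 1.06 on the log2 scale (SE 0.38, 95% interval 0.20 to 1.92), which did not pass without the block (adjusted p = 0.112, edgeR) and passed with it (1.01, SE 0.20, adjusted p = 0.00247, edgeR). DESeq2 called it without a block too, with an adjusted p of 0.0336, and over all alternatives the adjusted p ran from 1.94e-05 to 0.72. BrM2 was above LM2 by 0.75 with the block (SE 0.20, adjusted p = 0.0137, edgeR, range 0.00324 to 0.864), and by 0.92, 0.86 and 0.50 within replicate numbers 1, 2 and 3. LM2 and Par differed by 0.34 with a 95% interval of -0.51 to 1.19, and the sign was negative in replicate number 1 and positive in the other two.

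BCL2L1 (ENSG00000171552, chr20:31664452-31723963) encodes BCL-XL and, by an alternative splice site, the pro-apoptotic BCL-XS. The gene counts do not separate these isoforms, nor the long and short forms of MCL1. BCL2L1 stood at 753, 419.9 and 437 CPM in Par, at 751, 304 and 276 CPM in LM2, and at 559, 340.1 and 314 CPM in BrM2. The 3 groups overlapped, with replicate 1 highest in each. No difference passed without the block. With it, BrM2 was below Par (log2 fold change -0.40, SE 0.14, adjusted p = 0.0403, edgeR, range over alternatives 0.0207 to 0.968), and was lower in all 3 replicate numbers. LM2 against Par was at -0.37 with the block (adjusted p = 0.067, edgeR) and at -0.56 without replicate 1 of every line (adjusted p = 0.00497, edgeR, range to 1). Exons of ABALON overlap BCL2L1 on the opposite strand, and 35.57% of the 50-base stretches of BCL2L1 transcripts occur in ABALON. ABALON had a mean count of 30.3, beside 6555 to 15116 counts of BCL2L1. Its own log2 fold change was -1.44 in LM2 against Par (edgeR adjusted p = 0.255 unblocked and 0.00464 blocked) and -0.20 in BrM2 against Par (edgeR adjusted p = 0.909 unblocked). The effect of the overlap on the BCL2L1 count was not tested.

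MCL1 (ENSG00000143384, chr1:150574558-150579610), which encodes a short-lived protein on which many breast cancer cells depend, is measured here only as RNA. It stood at 217, 284 and 305 CPM in Par, at 257, 392 and 435 CPM in LM2, and at 235, 374 and 385 CPM in BrM2. The groups overlapped through replicate 1, which was lowest in each line. LM2 was above Par in all 3 replicate numbers, by 0.24, 0.47 and 0.51 on the log2 scale, and passed with the block (0.41, SE 0.11, adjusted p = 0.0144, edgeR) but not without it (0.43, SE 0.27, adjusted p = 0.462, edgeR), with a range over alternatives of 0.00181 to 1. BrM2 against Par was at 0.28 with the block (95% interval 0.04 to 0.52, adjusted p = 0.0555, edgeR). BrM2 and LM2 differed by -0.12 (95% interval -0.36 to 0.12 with the block).

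**Figure D3:**
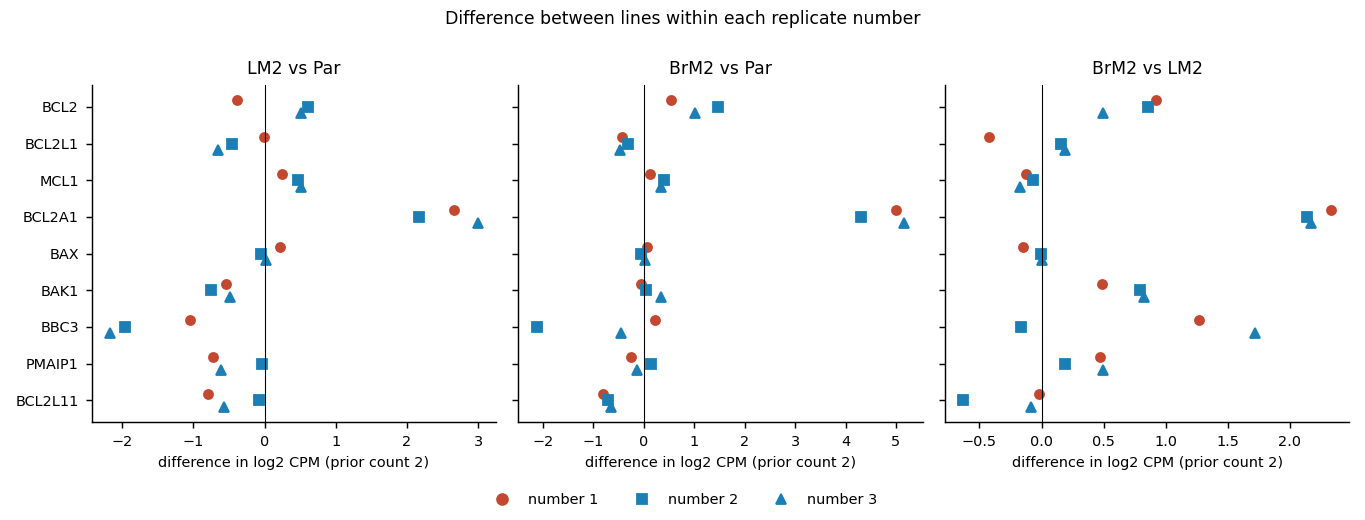
Difference in log2 CPM (prior count 2, horizontal axes) between libraries of the same replicate number, for the 9 tested members in the 3 comparisons. The BCL2A1 values are shortened by the prior count, and BAX lies within 0.22 of 0 throughout.

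The effectors BAX and BAK1 behaved differently from each other. BAX (ENSG00000087088, chr19:48954875-48961798) stood at 135, 86.8 and 76.2 CPM in Par, at 157, 83.7 and 77.5 CPM in LM2, and at 141, 83.3 and 77.6 CPM in BrM2. Replicate 1 was highest in every line, and the lines overlapped throughout. The blocked log2 fold change of BAX was 0.06 in LM2 (95% interval -0.17 to 0.30), 0.01 in BrM2 (-0.23 to 0.25) and -0.05 between BrM2 and LM2 (-0.29 to 0.18). Without the block the intervals were wider, at -0.73 to 0.92 in LM2, -0.81 to 0.84 in BrM2 and -0.90 to 0.75 between BrM2 and LM2, so the limit on a difference in BAX depends on the block.

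BAK1 (ENSG00000030110, chr6:33572552-33580276) stood at 116, 63.5 and 52.0 CPM in Par, at 79.3, 37.7 and 37.0 CPM in LM2, and at 112, 65.5 and 65.9 CPM in BrM2. LM2 was lowest within every replicate number, although the 3 lines overlapped when replicate numbers were ignored. LM2 minus Par was -0.55, -0.75 and -0.49 on the log2 scale within numbers 1, 2 and 3. This gave a log2 fold change of -0.60 with the block (SE 0.12, adjusted p = 0.00356, edgeR) and -0.59 without it (SE 0.42, adjusted p = 0.526, edgeR), with a range over alternatives of 0.000256 to 1. BrM2 was above LM2 by 0.71 with the block (SE 0.12, adjusted p = 0.0013, edgeR) and by 0.66 without it (adjusted p = 0.438, edgeR), with a range of 3.03e-06 to 0.933. BrM2 against Par was at 0.11 (95% interval -0.16 to 0.38 with the block). Of the 50-base stretches of BAK1, 14.35% also occur in the pseudogene BAK1P1 or in GGNBP1. The effect of this on the BAK1 count was not tested.

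Of the BH3-only members, BCL2L11 was the member that passed without the block. BCL2L11 (ENSG00000153094, chr2:111120914-111168445) encodes BIM, which binds all anti-apoptotic members and takes part in anoikis, the death of epithelial cells that lose their matrix. Its level was 20.02, 18.01 and 17.96 CPM in Par, 11.5, 17.02 and 12.1 CPM in LM2, and 11.4, 10.9 and 11.4 CPM in BrM2. Both sub-populations were below every Par library, LM2 replicate 2 only narrowly, and BrM2 varied little. Among all tested genes, 13.3% were lower in this way in LM2 and 16.1% in BrM2. BrM2 fell below Par by a log2 fold change of -0.73 (SE 0.21, 95% interval -1.20 to -0.26), with adjusted p-values (edgeR) of 0.04997 unblocked and 0.00514 blocked. Within replicate numbers the difference was -0.81, -0.71 and -0.66. This call lay at the threshold: the adjusted p was 0.0735 to 0.156 in the 7 of 9 fits without 1 library in which it was lost, namely each of the Par and BrM2 libraries and LM2 replicate 3, and ran from 0.00118 to 0.542 over all alternatives. LM2 against Par was at -0.46 without the block (adjusted p = 0.255, edgeR) and at -0.47 with it (adjusted p = 0.0473, edgeR, range to 0.969).

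BCL2L11 shares 727 bases of exon with the long non-coding RNA MIR4435-2HG on the opposite strand, and the strand that was counted is not given in the sources used here. MIR4435-2HG had a mean count of 1274, and its own log2 fold change in BrM2 was -0.36 (edgeR adjusted p = 0.217 unblocked and 0.0277 blocked). Its part in the BCL2L11 difference was not tested.

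BBC3 (ENSG00000105327, chr19:47220824-47232860) encodes PUMA, a p53 target that binds all anti-apoptotic members. MDA-MB-231 is known to carry mutant p53. BBC3 was scarce, with 12 to 94 counts per library. It stood at 3.57, 4.55 and 2.40 CPM in Par, at 1.69, 1.10 and 0.460 CPM in LM2, and at 4.21, 0.971 and 1.73 CPM in BrM2. All LM2 libraries were below all Par libraries, whereas the BrM2 libraries were spread over both ranges. The log2 fold change in LM2 was -1.70 without the block (SE 0.61, adjusted p = 0.142, edgeR) and -1.80 with it (SE 0.42, adjusted p = 0.00701, edgeR), with a range over alternatives of 0.000333 to 0.786. It was negative in all 3 replicate numbers, at -1.04, -1.96 and -2.17. BrM2 against Par was at 0.23, -2.12 and -0.45 within the numbers, with a blocked value of -0.75 (95% interval -1.63 to 0.12).

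PMAIP1 (ENSG00000141682, chr18:59899996-59904305) encodes NOXA, which binds MCL1 and BFL1 and promotes the degradation of MCL1. It stood at 38.3, 56.2 and 62.4 CPM in Par, at 23.1, 54.8 and 40.6 CPM in LM2, and at 32.2, 62.4 and 57.2 CPM in BrM2. Replicate 1 was lowest in each line, and the lines overlapped. LM2 against Par was at -0.40 without the block (adjusted p = 0.654, edgeR) and at -0.46 with it (SE 0.14, adjusted p = 0.0298, edgeR), with a range over alternatives to 1. Within replicate numbers it was -0.72, -0.04 and -0.62. BrM2 and Par differed by -0.08 (95% interval -0.40 to 0.23 with the block).

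BIK (ENSG00000100290, chr22:43110750-43129712), which encodes a BH3-only protein of the endoplasmic reticulum membrane, was close to the limit of detection. It had 8, 6 and 8 counts in Par, 1, 4 and 6 in LM2, and 0, 0 and 4 in BrM2. In CPM, Par was highest and did not overlap either sub-population. In a fit with no filter on low counts the log2 fold change was -1.13 in LM2 (adjusted p = 0.662, edgeR) and -2.20 in BrM2 (adjusted p = 0.193, edgeR), and with the block in addition, a setting chosen after seeing the data, -2.30 in BrM2 (adjusted p = 0.0554, edgeR). At 3 counts per library, the floor was 0.115 to 0.221 CPM, so that a fall of BIK could hardly be measured.

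Counting only separation of the libraries, 4 of the 10 members did not overlap between LM2 and Par (BCL2A1 higher, BBC3, BCL2L11 and BIK lower), beside 25.1% of tested genes. BIK was not among the tested genes, and over the 9 tested members the count was 3. Between BrM2 and Par 4 did not overlap (BCL2 and BCL2A1 higher, BCL2L11 and BIK lower), beside 31.3%, and 3 of these were tested members. Between BrM2 and LM2 it was 2 tested members (BCL2A1 higher, BCL2L11 lower), beside 23.1%. For 3 libraries against 3, an exact permutation test of a single gene cannot give a p below 0.10.

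Levels of different members can be compared per kilobase of the longest transcript, in CPM per kb. In bulk RNA, fewer cells with a transcript and less transcript per cell cannot be told apart. BCL2L1 was the most abundant member in all 3 lines, at 165 ± 57.6 CPM per kb in Par, 136 ± 81.7 in LM2 and 124 ± 41.3 in BrM2 (SD, n = 3). MCL1 followed among the anti-apoptotic members, at 59.1 ± 10.1, 79.4 ± 20.4 and 72.9 ± 18.4 CPM per kb. BCL2 was 1.24 ± 0.212, 1.56 ± 0.652 and 2.58 ± 0.837 CPM per kb. Among the pro-apoptotic members the order of the means was BAX, BAK1, PMAIP1, BCL2L11, BBC3 and BIK in every line. BAX was at 73.1 to 78.0 CPM per kb on average and BAK1 at 23.2 to 36.6. The gap between BAX and BAK1 depended on the length used. BAX has 1358 bases in its longest transcript and 2587 in its exon union, and BAK1 has 2212 in both. BAX and BAK1 averaged 51.1% and 23.9% of the summed pro-apoptotic level in Par, 60.9% and 17.96% in LM2, and 51.7% and 25.6% in BrM2. With the exon union as length these shares were 37.3% and 33.4% in Par, 47.2% and 26.5% in LM2, and 37.8% and 35.6% in BrM2. PMAIP1 averaged 20.8 to 27.6 CPM per kb, a difference from BAK1 that was within their SDs in every line. Its place below BAK1 came from replicate 1: PMAIP1 was above BAK1 in 6 of the 9 libraries, replicates 2 and 3 of every line. BBC3 was above BCL2L11 in 1 library, BrM2 replicate 1.

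BCL2L1 held 82.6%, 66.9% and 66.2% of the summed anti-apoptotic level in Par, 79.9%, 51.2% and 46.2% in LM2, and 75.1%, 53.4% and 51.3% in BrM2. The share was lower in both sub-populations within every replicate number, with differences of -2.64 to -19.9 percentage points in LM2 and -7.46 to -14.9 in BrM2, but the lines overlapped and the exact permutation test over 3 against 3 gave p = 0.3 for both. In LM2 replicate 3, MCL1 exceeded BCL2L1, with a BCL2L1 to MCL1 ratio of 0.887 in CPM per kb. The lowest such ratio elsewhere was 1.08 in LM2 replicate 2, and the highest was 4.84 in Par replicate 1. The summed anti-apoptotic level was 225 ± 47.8 CPM per kb in Par, 218 ± 60.9 in LM2 and 204 ± 21.5 in BrM2, and the summed pro-apoptotic level was 141 ± 32.3, 125 ± 36.4 and 141 ± 30.3. Their ratio was 1.60 ± 0.114 in Par, 1.75 ± 0.118 in LM2 and 1.47 ± 0.147 in BrM2, and LM2 and BrM2 did not overlap (exact permutation p = 0.1, the smallest possible). Within replicate numbers 1, 2 and 3, LM2 minus Par was 0.16, 0.14 and 0.15, BrM2 minus LM2 was -0.43, -0.09 and -0.31, and BrM2 minus Par was -0.27, 0.05 and -0.16. LM2 was thus the highest line in all 3 numbers, although an exact permutation test over 3 pairs cannot give a p below 0.25. The ratio sums genes of unequal potency, was taken with the longest transcript as the only length, and describes RNA only.

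**Figure D4:**
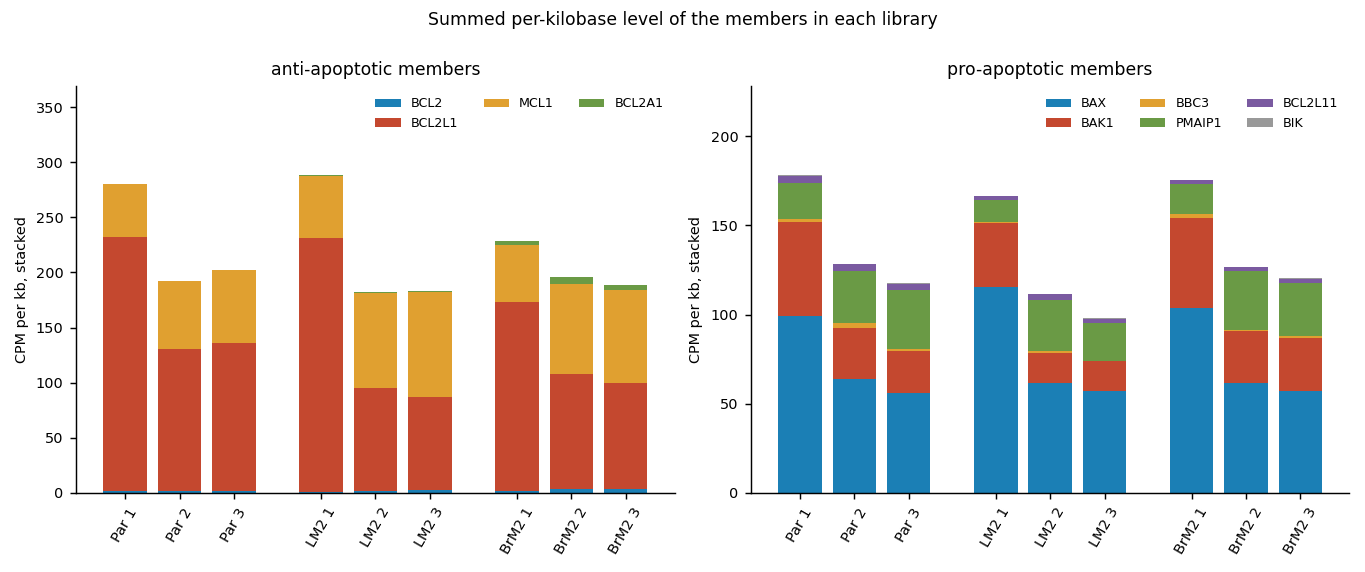
CPM per kb (vertical axes, starting at 0) of the anti-apoptotic and pro-apoptotic members, stacked for each of the 9 libraries. BCL2L1 and MCL1 make up nearly the whole anti-apoptotic column in every library, BCL2A1 is visible as a cap in BrM2, and the columns of replicate 1 are the tallest of each line.

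The surrounding apoptosis pathway was read from 8 lists of 78 genes chosen by function, of which 70 were tested. Without the block 6 differed between LM2 and Par (1 higher, 5 lower), 8 between BrM2 and Par (2 higher, 6 lower) and 2 between BrM2 and LM2 (both higher), beside 8.65%, 13.2% and 8.08% of all genes. As shares of the 70 these were 8.57%, 11.4% and 2.86%. With the block the counts were 19, 25 and 22, or 27.1%, 35.7% and 31.4%, below the 34.5%, 42.7% and 37.5% of all genes called in that fit. Among other BCL2 family genes, 11 of 15 were tested. BMF, a BH3-only gene whose protein senses cytoskeletal damage and loss of anchorage, fell in both sub-populations, from 5.72 ± 1.32 CPM in Par to 2.31 ± 0.860 in LM2 (log2 fold change -1.31, SE 0.34, adjusted p = 0.0446, edgeR) and 1.15 ± 0.157 in BrM2 (-2.32, SE 0.36, adjusted p = 0.00292, edgeR). The LM2 call of BMF was kept in 8 of 19 alternatives, with an adjusted p of 0.000691 to 0.634, and the BrM2 call in 17. BNIP3, a mitophagy receptor induced by hypoxia, fell in LM2 (-0.90, SE 0.20, adjusted p = 0.0253, edgeR), a call kept in 9 of the 19. The median of the list was -0.01 in LM2 and -0.15 in BrM2, beside 0.01 and -0.02 over all genes.

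Death receptors, their ligands and adaptors held the largest pathway change. TNFSF10 (TRAIL), the ligand that triggers death receptors, fell from 45.4 ± 6.51 CPM in Par to 2.41 ± 0.592 in LM2 (log2 fold change -4.23, SE 0.31, adjusted p = 0.000118, edgeR) and 2.38 ± 0.706 in BrM2 (-4.24, SE 0.31, adjusted p = 8.84e-05, edgeR). CFLAR (c-FLIP), which blocks caspase-8 at the receptor, fell in both (-0.85 in LM2 and -1.01 in BrM2, SE 0.17 in each), and the decoy receptor TNFRSF10D rose in both (0.60 and 1.28, SE 0.15 in each). TNFRSF10A, the death receptor DR4, fell in LM2 (-0.88, SE 0.19, adjusted p = 0.0206, edgeR). In BrM2 it was at 0.65 above Par (adjusted p = 0.0521, edgeR), and it rose in BrM2 over LM2 by 1.54 (SE 0.19, adjusted p = 0.00152, edgeR). Of the 10 tested genes in this list, 4 passed in LM2, 3 in BrM2 and 2 between the sub-populations. Both TNFSF10 calls were kept in all 19 alternatives. In LM2 the TNFRSF10A, CFLAR and TNFRSF10D calls were kept in 10, 11 and 5 of them, whereas in BrM2 CFLAR and TNFRSF10D were each kept in 17. Between BrM2 and LM2 TNFRSF10A was kept in 17 and TNFRSF10D in 8.

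Of 8 caspase and apoptosome genes, all tested, CASP6, an effector caspase, fell in BrM2 (-0.96, SE 0.19, adjusted p = 0.0103, edgeR), with no other call without the block. No gene passed without the block in the inhibitors of apoptosis (7 tested), the regulators of MCL1 protein turnover (6 tested) or the mitochondrial outer membrane partners (6 tested). In the blocked edgeR fit 1, 2 and 1 of them passed in LM2 and 1, 2 and 2 in BrM2. Of all tested genes, 34.5% and 42.7% were called in that fit. The MCL1 turnover calls were USP9X at -1.28 in LM2 and -1.50 in BrM2, BTRC at -0.46 in LM2 and HUWE1 at -0.41 in BrM2. These genes are named here after their values were seen. Of 12 transcription factors known to act on family genes, TP63 fell (-3.45, SE 0.81, adjusted p = 0.0234, edgeR) and MITF rose (1.62, SE 0.40, adjusted p = 0.0277, edgeR) in BrM2. TP63 had 31 to 62 counts per library in Par and 0 to 7 in BrM2, near the floor, so the size of its fall is poorly measured. Of 10 p53 targets outside the family, TP53INP1 fell in BrM2 (-1.71, SE 0.36, adjusted p = 0.0141, edgeR). Of the 19 alternatives, the CASP6 and TP53INP1 calls were kept in 15 and those of TP63 and MITF in 12.

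**Figure D5:**
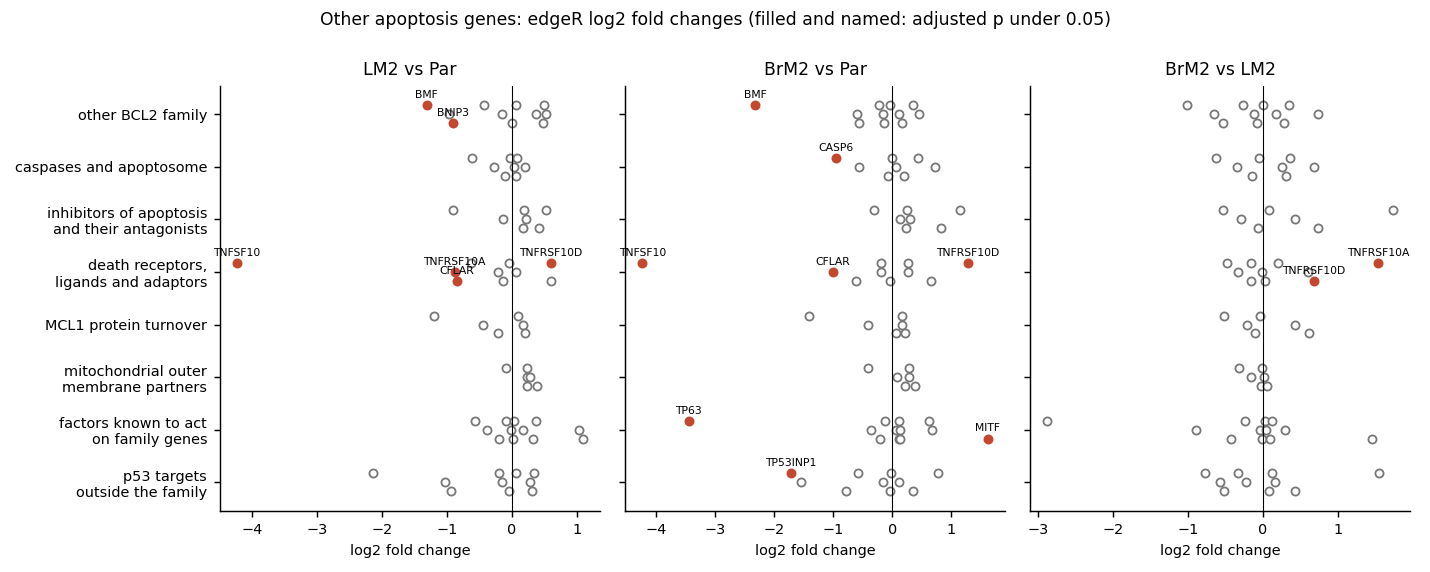
edgeR log2 fold changes without the block (horizontal axes) of the 70 tested pathway genes, by list, in the 3 comparisons. Filled and named points passed an adjusted p of 0.05, with TNFSF10 near -4.2 in both comparisons with Par.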

How the data were processed

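RNA-seq counts of the 9 libraries were used. The authors made stranded mRNA libraries, sequenced paired ends, aligned them to hg38 and counted reads per gene with STAR 2.7.0, and the deposited counts were not normalized. CASAVA 1.8.2 and DESeq2 are also named in the submitters' processing notes. The strand that was counted is not given in the sources used here. A deposited table of the authors' own comparisons, with fold changes and adjusted p-values, was not used. No column of per-sample values was left unused.

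The table had 58887 rows. 3 repeated identifiers, with identical rows, were dropped, which left 58884 genes. A filter written after HTSFilter kept the 13001 genes whose largest normalized count exceeded 49.24, which held 99.64% to 99.77% of each library's counts. Counts totalled 14371858 to 24511786 per library, and 3 counts, taken as the floor, correspond to 0.115 to 0.221 CPM. Floors cover counting error only.

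Differential expression was tested in edgeR 4.0.16 (R 4.3.3) with TMM normalization and the 2-sided quasi-likelihood test on all 9 libraries, with the line as the only term and Benjamini-Hochberg adjustment over all tested genes, at a threshold of 0.05. The replicate number was used as a block. The deviations of log2 CPM (prior count 2) from the line means correlated at 0.23 to 0.90 in all 9 pairs of libraries with the same number. Replicate 1 of a line correlated with replicates 2 and 3 of other lines at -0.88 to -0.34. Replicates 2 and 3 of different lines correlated at 0.39 to 0.80 where their numbers differed. The values thus set replicate 1 apart and do not show that replicates 2 and 3 are paired by number. The common dispersion was 0.11 without and 0.021 with the number as a block. Shares and sums used the exact 2-sided permutation test. The tests were checked on simulated data. Where a replicate effect was simulated, it was the same in all 3 lines by number, so this check cannot tell whether the numbers are paired in the data. The alternatives were relative log expression factors, no filter, filterByExpr, DESeq2 1.42.0, the block in both tools, the 2 compared lines only, and leaving out libraries or replicate numbers.

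The members, lists and rules were chosen with earlier results of these data known. The text names all 10 members, the up to 4 genes of each list and comparison with the smallest adjusted p among those called, and the 3 genes most correlated with the member of smallest adjusted p. A gene of the caspase list is not reported here and was left out of its counts. MARCHF5 is listed under its older symbol MARCH5, and of the 2 rows named DIABLO the row with more counts was used. Positions and promoters came from RefSeq GRCh38.p14, where 8 of the 10 members had a promoter window, and lengths, GC content, overlaps and shared 50-base stretches from GENCODE transcripts on GRCh37.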

Additional observations from a re-analysis of the deposited data

Results flagged for a closer look

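In 3 members the difference from Par was not the same in the 2 sub-populations, by an edgeR test of the difference itself. For BCL2A1, the log2 fold change against Par was larger in BrM2 than in LM2 by 2.33, and the difference passed with and without the replicate block. For BCL2 it was larger in BrM2 by 0.75, and for BAK1 by 0.71, both with the replicate block. Neither passed in the fit of all 9 libraries without the block. Without replicate 1 of every line and without a block, both passed (adjusted p = 0.0224 and 0.00248, edgeR). In each of the 3 members the difference had the same sign in all 3 replicate numbers. LM2 and BrM2 share the Par libraries, so the difference is that of BrM2 against LM2.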

How the results depend on the processing

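Calls depended most on the replicate number. For LM2 against Par, 1 member was called, and 2 with no filter on low counts, 6 with the replicate block, 5 with the block in DESeq2, 0 with the 2 compared lines only and 0 to 5 when libraries or replicate numbers were left out. For BrM2 against Par, 2 were called, and 1 with relative log expression factors, no filter, filterByExpr or the 2 lines only, 4 with the replicate block, 5 with the block in DESeq2, and 1 to 5 with libraries left out. For BrM2 against LM2, 1 was called, and 3 with the block, 4 with the block in DESeq2 and 0 to 3 with libraries left out. Among the fits that left out libraries, the highest counts, 5, 5 and 3, came without replicate 1. Over the pathway lists the counts of 6, 8 and 2 became 19, 25 and 22 with the block and 22, 27 and 22 with the block in DESeq2, and ranged over 1 to 20, 1 to 28 and 0 to 19 with libraries left out. With the 2 lines only they were 1 in LM2 against Par and 1 in BrM2 against LM2, where they were also 4 with no filter and 5 in DESeq2.

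The log2 fold change changed sign only when libraries were left out, and never for a call. In LM2 against Par it lay between -0.886 and 0.051 for BCL2L1 and between -0.301 and 0.379 for BAX, and in BrM2 against Par lay between -0.30 and 0.30 for BAX, -0.23 and 0.49 for BAK1, -1.38 and 0.0167 for BBC3, and -0.23 and 0.19 for PMAIP1. In BrM2 against LM2 it lay between -0.44 and 0.48 for BCL2L1, -0.319 and 0.0713 for MCL1, and -0.40 and 0.32 for BAX. The causes were not tested. The mean BCL2L1 share of the anti-apoptotic level, 71.9% in Par, 59.1% in LM2 and 59.9% in BrM2, was 73.1%, 60.5% and 61.3% with the exon union as length and 66.5%, 48.7% and 52.3% without replicate 1. Depth limits BIK, at 0 to 8 counts per library, and BCL2A1 in Par, at 0 to 3.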

Other observations

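Genes within 1 Mb of each member, chosen after seeing the data, were counted as values. Around BCL2 on chromosome 18, 10 neighbours were tested. In BrM2 against Par 4 of them were called higher and 0 lower without the block in edgeR, and 8 higher and 0 lower with it, with a median log2 fold change of 0.82. Of all tested genes, 6.25% were called higher without the block in this comparison and 19.5% with it. In BrM2 against LM2 5 were called higher, and 10 with the block, with a median of 1.02, beside 4.08% and 17.9% of all genes. Around PMAIP1, also on chromosome 18, 2 of 4 neighbours were called higher in BrM2 against Par, 3 with the block, with a median of 0.90, while PMAIP1 itself was at -0.05. Around BAK1 on chromosome 6, 3 of 35 neighbours were called lower in LM2 against Par, and 14 with the block, with a median of -0.26. That is 8.57% and 40% of the neighbours, beside 4.48% and 19% of all genes called lower. Around BCL2A1 on chromosome 15, 0 of 10 neighbours were called higher in BrM2 against Par with or without the block in edgeR, while 1 was called lower without it and 3 with it, beside 6.99% and 23.2% of all genes. Neighbouring genes are not independent of each other, and no test of these counts was made.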
